A study of Mus musculus with 20 samples.

Results

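The genes described here are 10 genes of epithelial junctions and epithelial identity: Cdh1, Epcam, Cldn3, Cldn4, Cldn7, Ocln, Tjp1, Esrp1, Grhl2 and Ovol1. The list was chosen with earlier results of these data known. Its genes were then taken by symbol from the annotated rows of the array table, and no measured value entered that step. All 10 were found among the 17051 genes measured, on 24 of the 45220 rows of the table. The cells were MLE12, a line of mouse alveolar epithelium immortalised with a large T antigen. They were transfected with NICD1-pIRES-DsRed2, which expresses the intracellular domain of Notch1 (NICD1) together with a red fluorescent protein, or with the empty vector. Each of 20 dual-colour arrays set NICD1 RNA against empty vector RNA harvested equally long after transfection: 12 h on 6 arrays, 24 h on 7 and 48 h on 7. The transfection was transient, all replicates came from 1 cell line, and the labels name no selection of transfected cells, so each ratio is an average over the culture.

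In an epithelium, neighbouring cells are held together by adherens junctions, built on E-cadherin, and sealed by tight junctions, built on claudins and occludin that bind scaffold proteins inside the cell. Grainyhead-like transcription factors activate several of the genes for these proteins. OVO-like proteins repress mesenchymal genes, and epithelial splicing factors regulate the splicing of RNA in epithelial cells. Snail, ZEB and TWIST factors repress several of the junction genes during epithelial-mesenchymal transition, the loss of epithelial for mesenchymal character. Cleaved Notch1 acts in the nucleus as a co-activator of the DNA-binding protein Rbpj, and in several epithelia Notch activity has been linked to the Snail genes.

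Values are log2 ratios of NICD1 over empty vector, so that 0 means equal RNA and 1 means a doubling with NICD1. A fitted ratio comes from 1 linear model over all 20 arrays with a term for the dye, and is given ± its standard error (SE), with n the arrays that gave a value. A gene or row passed when limma's p-value, adjusted over all genes or rows by the Benjamini-Hochberg method, was under 0.05. Ratios hold no level, so how strongly MLE12 cells express a gene, and whether epithelial markers stand above other markers in them, could not be read from the table. In RNA of a whole culture, fewer cells that express a gene and less RNA per cell cannot be told apart. Replicate 3 of 12 h and replicate 3 of 48 h had their ratios multiplied by -1, since the deposited ratio of Nrarp, a direct Notch target, was -1.93 and -1.58 there and at least 1.31 on the other 18 arrays. On 48 h replicates 5, 6 and 7 the ratios were spread more widely over all genes, with SDs from 0.705 to 0.813, and for the genes named by value it is said which 48 h calls ended without these arrays.

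Between NICD1 and empty vector, 1 of the 10 genes passed as higher, at 48 h, and none passed as lower at any time. A gene that did not pass may still have changed, within the intervals given further on. At 12 h none of the 10 passed the test with limma and none had an unadjusted p under 0.05, against 0.282% of all genes that passed. Their fitted ratios ran from -0.48 to 0.19 with a median of -0.00, beside 0.00 over all genes. At 24 h again none passed, against 1.67% of all genes, and Cdh1 alone had an unadjusted p under 0.05. The fitted ratios then ran from -0.05 to 0.42 with a median of 0.04, and 8 of the 10 were above 0. At 48 h, when 27.8% of all genes passed, 1 of the 10 did: Grhl2, which was higher with NICD1. The other 9 did not pass, and the 10 ratios ran from -0.49 to 0.47 with a median of -0.04, beside -0.01 over all genes. The median absolute ratio of the 10 genes was 0.10, 0.05 and 0.20 at the 3 times in order, and that of all genes 0.10, 0.10 and 0.24. None of the 10 genes passed the test of a difference between times. For 24 h minus 12 h, 0.897% of all genes passed, for 48 h minus 24 h 2.05%, and for 48 h minus 12 h 9.17%. At an unadjusted p under 0.05, none of the 10 differed between 12 and 24 h, 1 between 24 and 48 h, and 1 between 12 and 48 h, in both cases Grhl2, beside 5.69%, 24.4% and 26.6% of all genes.

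**Figure D1:**
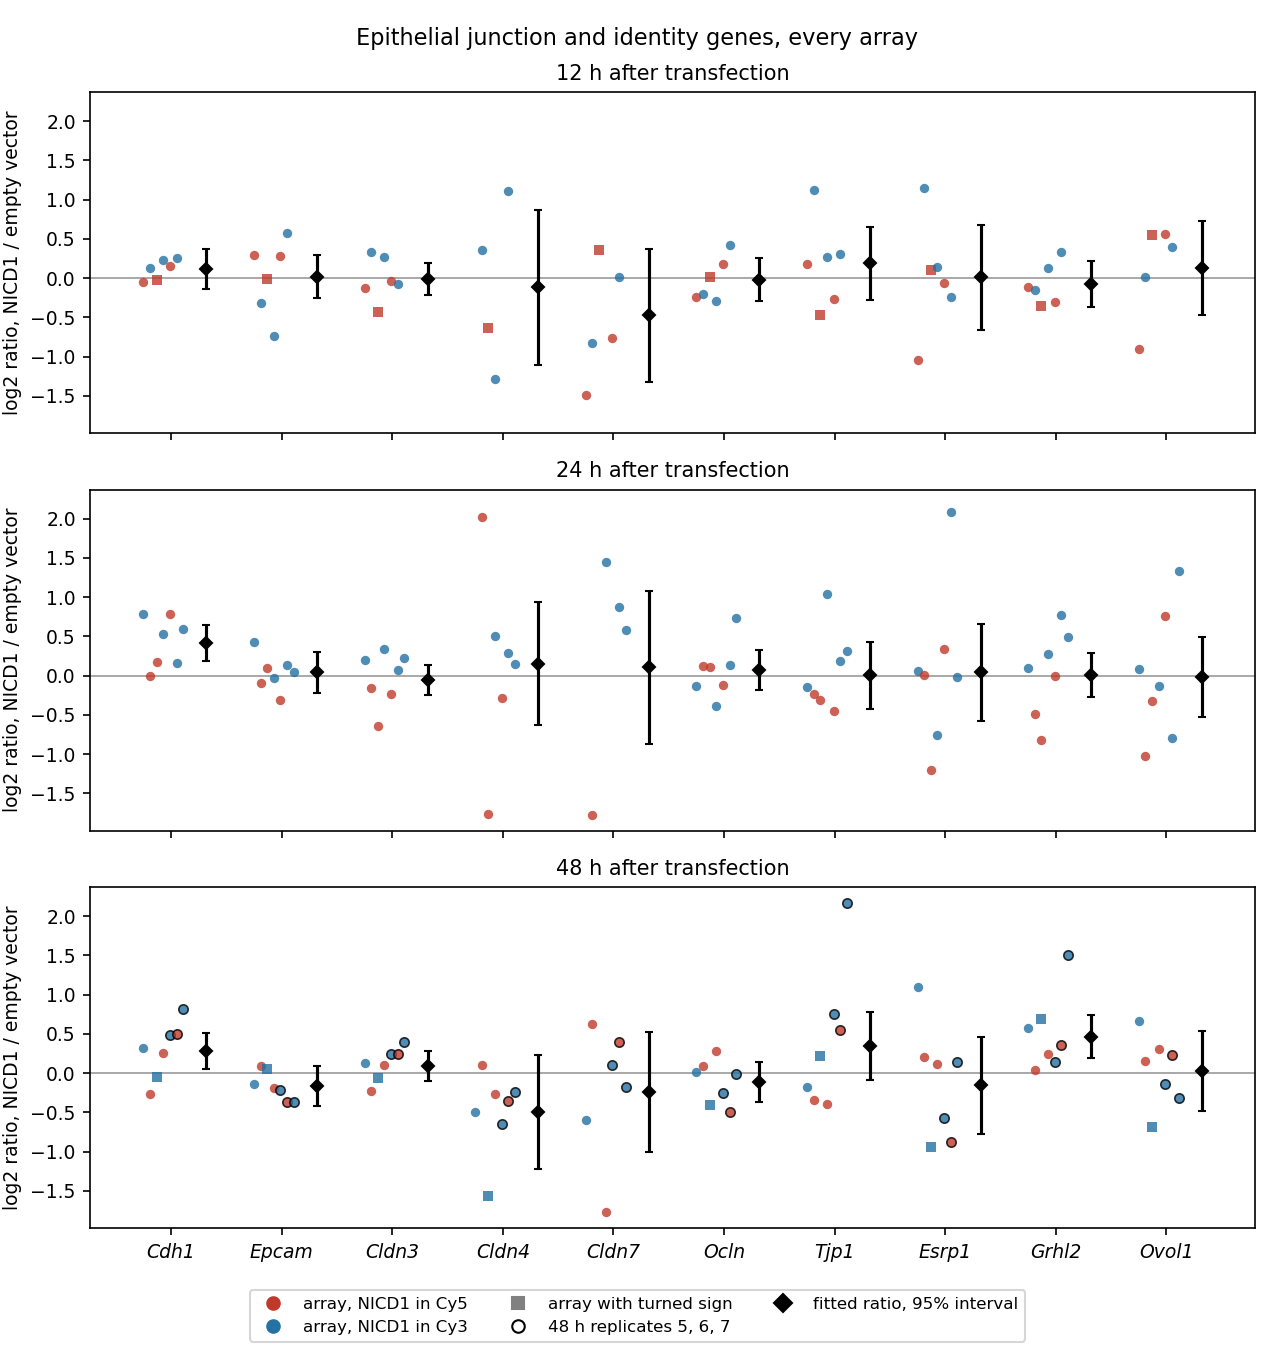
Log2 ratio of NICD1 over empty vector for each of the 10 genes (x axis) at 12, 24 and 48 h (panels), with 1 point per array, coloured by the dye on the NICD1 RNA, squares for the 2 arrays whose sign was turned, black outlines for 48 h replicates 5, 6 and 7, and diamonds with bars for the fitted ratio and its 95% interval. The points are drawn before removal of the dye effect. Most intervals cover 0, the Grhl2 points at 48 h as drawn all lie above it, and the points of Cldn4, Cldn7, Tjp1 and Esrp1 reach beyond 1 in size at all 3 times.

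Grhl2 (Entrez Gene 252973, chromosome 15) encodes a grainyhead-like transcription factor that activates Cdh1 and claudin genes in epithelia. Before the dye effect was removed, its ratios at 48 h were 0.04 at the lowest, 0.36 at the median and 1.502 at the highest. All 7 arrays then lay above 0, with the highest value on replicate 7 and the lowest on replicate 2. With the dye effect removed, replicates 1 to 4 lay between 0.28 and 0.54 and replicates 5 to 7 between -0.15 and 1.21. The value below 0 was that of replicate 5. The fitted rise of 0.47 ± 0.13 (SE, n = 7; adjusted p = 0.0126) corresponds to 1.38-fold, with a 95% interval from 1.14 to 1.67. At 12 h its 6 ratios ran from -0.36 to 0.33 around a median of -0.13, and the fitted ratio was -0.08 ± 0.14 (n = 6; adjusted p = 0.999). At 24 h they ran from -0.82 to 0.77 around a median of 0.10, and the fitted ratio was 0.01 ± 0.13 (n = 7; adjusted p = 0.998). The ratios at 48 h overlapped with those at both earlier times. The difference from 24 h was 0.46 ± 0.19 (adjusted p = 0.138) and that from 12 h was 0.54 ± 0.19 (adjusted p = 0.0805), so neither passed.

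The Grhl2 values differed with the dye at 24 h. The 4 arrays with NICD1 in Cy3 lay between 0.10 and 0.77 with a mean of 0.41, and the 3 with NICD1 in Cy5 between -0.82 and 0.00 with a mean of -0.44, so the orientations did not overlap. At 48 h the means were 0.73 in Cy3 and 0.22 in Cy5, and both ranges lay above 0. The call at 48 h ended when replicates 5, 6 and 7 were left out (0.39 ± 0.14; adjusted p = 0.128), where 3.69% of all genes passed, and when 48 h was fitted alone (0.47 ± 0.17; adjusted p = 0.128), where 1.37% did. It also ended with all ratios as deposited, at 0.28 and an adjusted p of 0.288, since replicate 3, which was turned, then counted as -0.68 in place of 0.68.

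Grhl2 had 3 rows, of which 2 had enough values to be fitted. The fitted ratio at 48 h was 0.51 ± 0.18 on row 4537 (adjusted p = 0.0417 over all rows) and 0.42 ± 0.22 on row 27370 (adjusted p = 0.174). Before removal of the dye effect, the rows differed in which arrays carried the rise. The share of all rows with a gap between the sets of arrays was not counted. On row 4537 the ratios at 48 h were 0.31, -0.08, -0.22 and 0.38 on replicates 1 to 4 and 0.85, 0.44 and 2.11 on replicates 5 to 7, with no overlap between the sets and means of 0.10 and 1.13. On row 27370 they were 0.84, 0.16, 1.59 and 0.12 on replicates 1 to 4 and -0.56, 0.28 and 0.89 on replicates 5 to 7, with overlap and means of 0.68 and 0.20. The row left out, 22287, had 3 values at 48 h, of -1.93, 1.26 and -0.19. The sources used here do not place the probes within the transcript. Over the 20 arrays with the dye effect removed, the genes whose ratios followed Grhl2 most closely were Kif7 (Pearson r = 0.815), Fam53c (0.788) and Ptprm (0.785), among 14375 genes with values on every array. The points of this correlation share the dye layout and the 3 widely spread arrays, and it is given as a description. At 48 h Kif7 was higher with NICD1 by 0.51 (adjusted p = 0.00225), while Fam53c, at 0.12 (adjusted p = 0.278), and Ptprm, at 0.12 (adjusted p = 0.684), did not pass.

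Cdh1 (Entrez Gene 12550, chromosome 8) encodes E-cadherin, the adhesion receptor of adherens junctions. Its ratios at 24 h were -0.01 at the lowest, 0.53 at the median and 0.79 at the highest, with 6 of the 7 arrays above 0. The fitted ratio was 0.42 ± 0.11 (SE, n = 7), or 1.34-fold with a 95% interval from 1.14 to 1.57, and with an adjusted p of 0.0716 it missed the threshold. At 48 h the 7 ratios ran from -0.27 to 0.82 around a median of 0.33, with 5 above 0. The fitted ratio was 0.28 ± 0.11 (n = 7; adjusted p = 0.0652), with a 95% interval from 0.05 to 0.52 on the log2 scale. At 12 h the 6 ratios ran from -0.06 to 0.26 around a median of 0.14, and the fitted ratio was 0.12 ± 0.12 (adjusted p = 0.999). The ranges of the 3 times overlapped. No fitted value of Cdh1 was below 0 at any time, and at 48 h the interval's lower bound lay above 0, before adjustment over all genes.

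The ratio of Cdh1 at 48 h differed between sets of arrays. With the dye effect removed, replicates 1 to 4 lay between -0.17 and 0.36 with a mean of 0.07, and replicates 5 to 7 between 0.39 and 0.71 with a mean of 0.57, so the sets did not overlap. Without replicates 5, 6 and 7 the fitted ratio at 48 h was 0.07 ± 0.13 (adjusted p = 0.82). The same fit put Cdh1 past the threshold at 24 h, at 0.42 with an adjusted p of 0.0276. Cdh1 also passed at 24 h with arrays centred and scaled to equal spread (0.50; adjusted p = 0.0171) and with array weights (0.40; adjusted p = 0.0165), and when 48 h replicate 2 (adjusted p = 0.0463) or replicate 7 (adjusted p = 0.0455) was left out.

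Cdh1 was measured on 10 rows, more than any other of the 10 genes, and the fitted ratios of the rows were alike. On some single arrays the rows differed more. They ran from -0.425 to 0.861 on 24 h replicate 4 and from -0.166 to 0.759 on 48 h replicate 4. At 24 h all 10 fitted row ratios were above 0, from 0.34 to 0.47, and the lowest adjusted p was 0.0568. At 48 h all 10 were above 0 as well, from 0.16 to 0.38, and 1 row passed (adjusted p = 0.0315). At 12 h they ran from 0.02 to 0.28. The 10 rows read the same RNA on the same arrays, so they repeat the measurement and are not replicates. Of all 21 rows of the 10 genes that had enough values, none passed at 12 h, where 0.19% of all rows did, and none at 24 h, where 1.16% did. At 48 h 3 passed, 1 each of Cdh1, Grhl2 and Tjp1, against 24.3% of all rows.

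**Figure D2:**
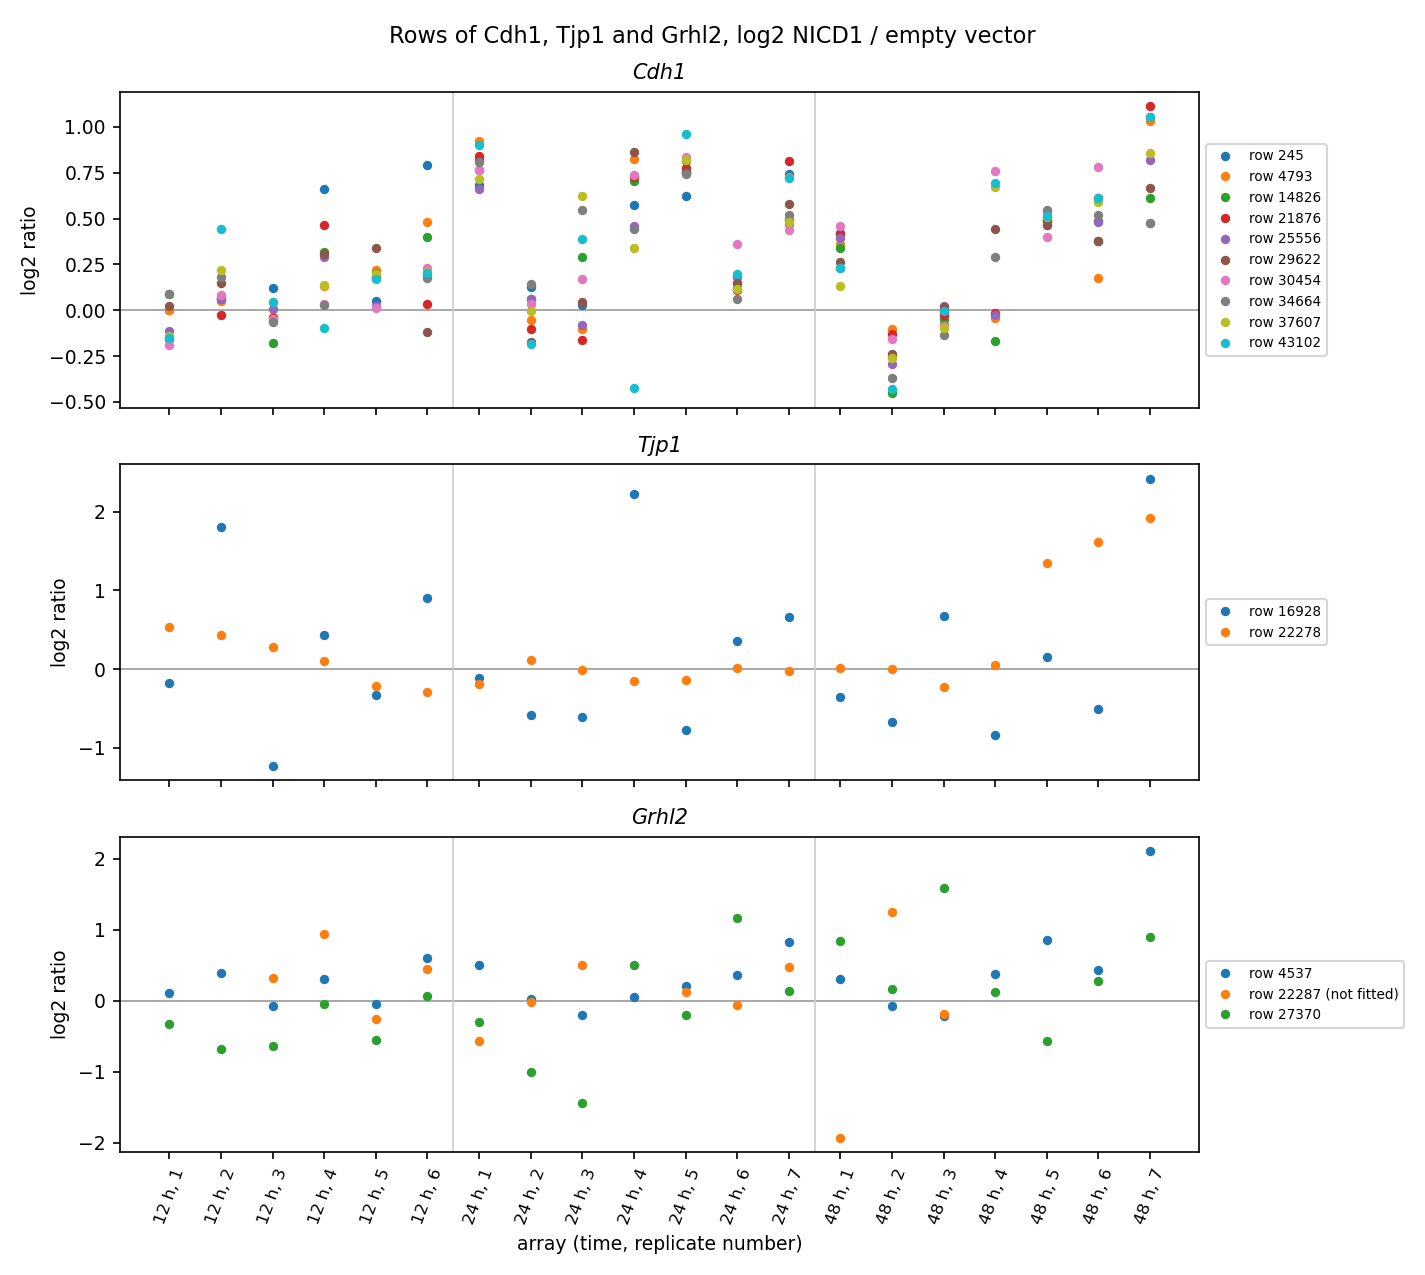
Log2 ratio of NICD1 over empty vector on each array (x axis, by time and replicate number) for every row of Cdh1, Tjp1 and Grhl2, with 1 colour per row. The points are drawn before removal of the dye effect. The 10 rows of Cdh1 lie close together on most arrays and further apart on others, such as replicate 4 of 24 h and of 48 h. In contrast, 1 row of Tjp1 lies near 0 on 48 h replicates 1 to 4 and between 1.35 and 1.92 on replicates 5 to 7.

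Tjp1 (Entrez Gene 21872, chromosome 7) encodes a zonula occludens scaffold protein that links claudins and occludin to actin. At 48 h its ratios were -0.40 at the lowest, 0.22 at the median and 2.17 at the highest, and the fitted ratio of 0.35 ± 0.21 (SE, n = 7) did not pass (adjusted p = 0.235). The 3 highest values were those of replicates 5, 6 and 7, at 0.75, 0.56 and 2.17. Without these arrays the fitted ratio turned to -0.17 ± 0.17 (adjusted p = 0.638). Its 2 rows differed. Before removal of the dye effect, row 22278 was at 0.01, 0.00, -0.23 and 0.05 on replicates 1 to 4 and at 1.35, 1.62 and 1.92 on replicates 5 to 7. Over all 7 arrays its fitted ratio was 0.67 ± 0.22 (adjusted p = 0.0287 over all rows). Row 16928 was at 0.02 ± 0.27 (adjusted p = 0.972), with replicates from -0.84 to 2.42. At 12 h and 24 h the fitted ratios of Tjp1 were 0.19 ± 0.22 and 0.00 ± 0.21, and the arrays ran from -0.47 to 1.12 and from -0.46 to 1.04. The Tjp1 values differed with the dye without overlap at both these times, with means of 0.57 in Cy3 and -0.19 in Cy5 at 12 h and of 0.35 and -0.33 at 24 h. At 48 h the means were 0.74 in Cy3 and -0.06 in Cy5, and the ranges overlapped.

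Across the 10 genes, 9 had values on all 7 arrays at 48 h. In 3 of these 9, Cdh1, Tjp1 and Epcam, replicates 5 to 7 did not overlap with replicates 1 to 4 once the dye effect was removed. Over all genes with 7 values, 33.6% showed such a gap in either direction, so the share among the 9 was close to that of all genes. Cdh1 and Tjp1 were higher on replicates 5 to 7 and Epcam was lower. What sets these 3 arrays apart is not given in the labels, and its part in these values was not tested.

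Epcam (Entrez Gene 17075, chromosome 17) encodes a cell surface adhesion protein of epithelia. At 48 h its ratios ran from -0.37 to 0.09 around a median of -0.18, with 5 of 7 below 0, and the fitted ratio was -0.16 ± 0.12 (n = 7; adjusted p = 0.368). With the dye effect removed, replicates 5 to 7 had a mean of -0.32 and replicates 1 to 4 a mean of -0.05. At 12 h the arrays ran from -0.73 to 0.58 and at 24 h from -0.31 to 0.43, with fitted ratios of 0.02 ± 0.13 and 0.04 ± 0.12.

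Claudins are the membrane strands of the tight junction, and Cldn3 (Entrez Gene 12739) and Cldn4 (12740), neighbours on chromosome 5, and Cldn7 (53624, chromosome 11) are claudins of epithelial barriers. Cldn3 had the narrowest errors of the 10 genes. Its ratios at 48 h ran from -0.23 to 0.40 around a median of 0.13, and its fitted ratios were -0.01 ± 0.10, -0.05 ± 0.09 and 0.10 ± 0.09 at 12, 24 and 48 h, none of which passed. At 24 h Cldn3, like Grhl2 and Tjp1, differed with the dye, with a mean of 0.21 in Cy3 and -0.35 in Cy5 and no overlap. For Cldn7 at 24 h the only Cy5 array, at -1.78, lay below the Cy3 arrays, from 0.59 to 1.44. The share of all genes with such a gap between dyes was not counted, so these gaps are given as a description. Cldn4 had the lowest fitted ratio of the 10 at 48 h, -0.49 ± 0.34 (n = 7; adjusted p = 0.325). Its arrays then ran from -1.57 to 0.11 around a median of -0.35, with 6 of 7 below 0, and the lowest value was on replicate 3, whose sign was turned. Cldn4 had values on 4 arrays at 12 h, from -1.29 to 1.10, and on 6 at 24 h, from -1.76 to 2.02, with fitted ratios of -0.12 ± 0.47 and 0.15 ± 0.37. Cldn7 had 5, 4 and 6 values at the 3 times and fitted ratios of -0.48 ± 0.39, 0.11 ± 0.45 and -0.24 ± 0.36, the last over arrays from -1.76 to 0.63 (adjusted p = 0.687). With spreads this wide, a change of Cldn4 or Cldn7 of the size seen in Grhl2 was not detectable with this number of arrays.

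Ocln (Entrez Gene 18260, chromosome 13) encodes occludin, a membrane protein of tight junction strands. Its ratios at 48 h ran from -0.49 to 0.28 around a median of -0.01, with 3 of 7 above 0, and the fitted ratio was -0.11 ± 0.12 (n = 7; adjusted p = 0.569). At 12 and 24 h the fitted ratios were -0.02 ± 0.13 and 0.07 ± 0.12. A second Ocln row had 2 values at each time and was not fitted.

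The RefSeq promoter windows (GRCm38.p6, from 250 bases before to 50 after a gene's start) were searched on both strands for CACCTG, the E-box bound by Snail and ZEB factors. These windows are shown because the repressor Snai1 was among the genes that passed at 48 h, as described further on, and Epcam, Cldn3 and Cldn4 are the genes with an E-box and 1 window each. They were chosen after the ratios were known. The windows lie at chr17:87635729-87636028 on the plus strand for Epcam, chr5:134985964-134986263 on the plus strand for Cldn3 and chr5:134946885-134947184 on the minus strand for Cldn4. Capitals mark the E-box, read as CACCTG on the gene's strand and as CAGGTG on the other strand.
Epcam: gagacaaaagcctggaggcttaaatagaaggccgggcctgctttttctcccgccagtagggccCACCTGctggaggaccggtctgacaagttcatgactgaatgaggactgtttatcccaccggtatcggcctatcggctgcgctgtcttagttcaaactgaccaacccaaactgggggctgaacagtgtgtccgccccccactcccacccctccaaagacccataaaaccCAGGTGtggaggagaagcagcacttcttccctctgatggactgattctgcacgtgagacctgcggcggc
Cldn3: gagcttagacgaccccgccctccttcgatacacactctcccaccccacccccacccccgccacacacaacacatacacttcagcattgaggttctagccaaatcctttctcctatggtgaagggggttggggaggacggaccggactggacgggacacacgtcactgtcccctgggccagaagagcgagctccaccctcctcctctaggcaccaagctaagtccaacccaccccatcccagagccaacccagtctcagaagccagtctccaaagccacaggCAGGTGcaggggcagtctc
Cldn4: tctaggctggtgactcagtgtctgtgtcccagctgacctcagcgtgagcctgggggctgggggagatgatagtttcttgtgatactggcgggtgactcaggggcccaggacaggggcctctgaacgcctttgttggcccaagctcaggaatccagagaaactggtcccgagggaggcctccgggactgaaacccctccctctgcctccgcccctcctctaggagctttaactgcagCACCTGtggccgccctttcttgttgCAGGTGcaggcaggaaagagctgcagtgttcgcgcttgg
Counted from the gene's start, the E-boxes begin at -187 and -19 in Epcam, at 32 in Cldn3 and at -14 and 12 in Cldn4. Of the 10 genes, 6 had a window in the table, with 8 windows in all, since Cldn7 and Ocln had a pair each and the windows of Ocln overlap. An E-box was in 6 of the 8 windows, those of Epcam, Cldn3, Cldn4, Ocln and 1 of Cldn7, and in 20.2% of all 32851 windows. TGGGAA, the core of the Rbpj site, was in 1 of the 8, of Cldn7, and in 25.6% of all windows. AACCNGTT, the grainyhead-like site, was in 0 of the 8 and in 2.09% of all windows. A match describes the letters and is no measured site. Cdh1, Esrp1, Grhl2 and Ovol1 had no window and were not searched. None of the genes with an E-box passed the test at any time. That was set beforehand, since Grhl2, the only passing gene of the 10, was not searched, and nothing is drawn from it.

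Esrp1 (Entrez Gene 207920, chromosome 4) encodes an epithelial splicing regulator. Its arrays were widely spread, from -0.94 to 1.10 around a median of 0.12 at 48 h, and the fitted ratio was -0.15 ± 0.30 (n = 7; adjusted p = 0.76). At 12 and 24 h the fitted ratios were 0.01 ± 0.32 and 0.04 ± 0.30, over arrays from -1.04 to 1.15 and from -1.20 to 2.09. Ovol1 (Entrez Gene 18426, chromosome 19) encodes a zinc finger repressor of mesenchymal genes in epithelia. Its arrays ran from -0.69 to 0.66 around a median of 0.16 at 48 h, and its fitted ratios were 0.12 ± 0.29 (n = 5), -0.01 ± 0.24 and 0.03 ± 0.24 at the 3 times, none of which passed.

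The intervals limit what could have been missed. At 48 h the 95% interval of the fitted ratio lay within a 1.5-fold change in either direction for 5 of the 10 genes, Cdh1, Epcam, Cldn3, Ocln and Ovol1, as it did for 48% of all genes. At 24 h it did so for 6, Epcam, Cldn3, Ocln, Tjp1, Grhl2 and Ovol1, and at 12 h for 5, Cdh1, Epcam, Cldn3, Ocln and Grhl2, beside 68.7% and 67.2% of all genes. For Cldn4, Cldn7 and Esrp1 a larger change lay within the interval at every time.

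Paralogs of the regulators were measured as well. Esrp2, the second epithelial splicing regulator, was at 0.19 at the lowest, 0.47 at the median and 0.87 at the highest at 48 h, with all 7 arrays above 0. The fitted rise was 0.50 ± 0.09 (SE, n = 7), or 1.41-fold, with an adjusted p of 0.000585, while Esrp1 did not pass. The Esrp2 values of replicates 5 to 7, at 0.87, 0.68 and 0.61, were the highest, and without them the fitted ratio was 0.32 ± 0.09 and missed the threshold (adjusted p = 0.0635). Whether the response of Esrp2 differed from that of Esrp1 was not tested. Grhl1 was at -0.23 ± 0.18, -0.31 ± 0.16 and 0.08 ± 0.16 at the 3 times and Ovol2 at 0.02 ± 0.21, 0.27 ± 0.20 and -0.10 ± 0.20, and neither passed.

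Other genes of the same structures were counted from lists of tight junction genes, adherens junction genes, epithelial regulators and identity genes, repressors of epithelial genes, and mesenchymal genes. With limma, none of their 92 measured genes passed at 12 h and none at 24 h, where 5 and 10 had an unadjusted p under 0.05, beside 5.36% and 8.35% of all genes. At 48 h 29 passed, against 27.8% of all genes. Of 29 measured tight junction genes, 4 rose and 6 fell, and the list's median was -0.05, beside -0.01 over all genes. The highest were Magi1, a junctional scaffold, at 0.62 ± 0.15 (adjusted p = 0.00381), and Lsr, an angulin of tricellular junctions, at 0.62 ± 0.17 (adjusted p = 0.0101). The lowest were Cldn10, a claudin, at -0.59 ± 0.21 (adjusted p = 0.0393), and Crb3, an apical polarity protein, at -0.58 ± 0.15 (adjusted p = 0.00798). Crb3 was below 0 on all 7 arrays, from -0.84 to -0.22, and Magi1 and Lsr above 0 on 6 of 7. Without replicates 5, 6 and 7 none of these calls held: Magi1 was at 0.47 (adjusted p = 0.19), Lsr at 0.04 (adjusted p = 0.802), Cldn10 at -0.33 (adjusted p = 0.564) and Crb3 at -0.55 (adjusted p = 0.162).

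Of 12 measured adherens junction genes, 6 rose and none fell, beside 27.8% of all genes that passed in either direction, and the median was 0.32. Nectin1, a cell adhesion receptor, was at 0.31 at the lowest, 0.66 at the median and 1.85 at the highest, and rose by 0.90 ± 0.14 (adjusted p = 0.000212), a 1.87-fold change. Camsap3, which anchors microtubule minus ends at these junctions, rose by 0.49 ± 0.10 (adjusted p = 0.00187) with all 7 arrays above 0, and without replicates 5, 6 and 7 it was at 0.27 (adjusted p = 0.15). Plekha7, which binds p120-catenin at the junction, rose by 0.49 ± 0.17. The catenin genes Jup and Ctnnb1 rose by 0.46 ± 0.14 and 0.19 ± 0.07, and Vcl, which encodes vinculin, by 0.45 ± 0.08. Plekha7, Jup, Ctnnb1 and Vcl did not pass without replicates 5, 6 and 7. Ctnna1, at 0.31 ± 0.13 (adjusted p = 0.0753), and Ctnnd1, at 0.15 ± 0.13 (adjusted p = 0.445), did not pass. Neither did Nectin4 and Afdn, at 0.33 ± 0.14 and 0.30 ± 0.16, nor Nectin2 and Nectin3, at -0.26 ± 0.16 and -0.25 ± 0.11. The Nectin1 values on replicates 5 to 7 were 1.852, 1.143 and 1.495, above the 0.31 to 0.66 of the other arrays, and without them Nectin1 was still higher, by 0.48 ± 0.10 (adjusted p = 0.0114).

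Of 23 measured epithelial regulators and identity genes, 5 rose and 1 fell, close to the 27.8% of all genes that passed, and the median was 0.08. Klf4 and Foxa2, transcription factors of epithelial cells, rose by 0.83 ± 0.24 (adjusted p = 0.0128) and 0.72 ± 0.20 (adjusted p = 0.0116). Both rises rested on replicates 5 to 7, since without them the fitted ratios were 0.03 ± 0.11 and 0.03 ± 0.10. Krt8, a keratin of simple epithelia, and Foxa1 rose by 0.45 ± 0.12 and 0.39 ± 0.07, and neither passed without replicates 5, 6 and 7. Krt18, another keratin, at -0.245 ± 0.11 (adjusted p = 0.109), and Muc1, at -0.48 ± 0.19 (adjusted p = 0.0638), did not pass. Without replicates 5, 6 and 7 Krt18 passed as lower. St14, a membrane serine protease, fell by 0.49 ± 0.16 on the log2 scale (fitted ratio -0.49; adjusted p = 0.0241). Without replicates 5, 6 and 7 St14 was at -0.68 and missed the threshold (adjusted p = 0.0827).

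**Figure D3:**
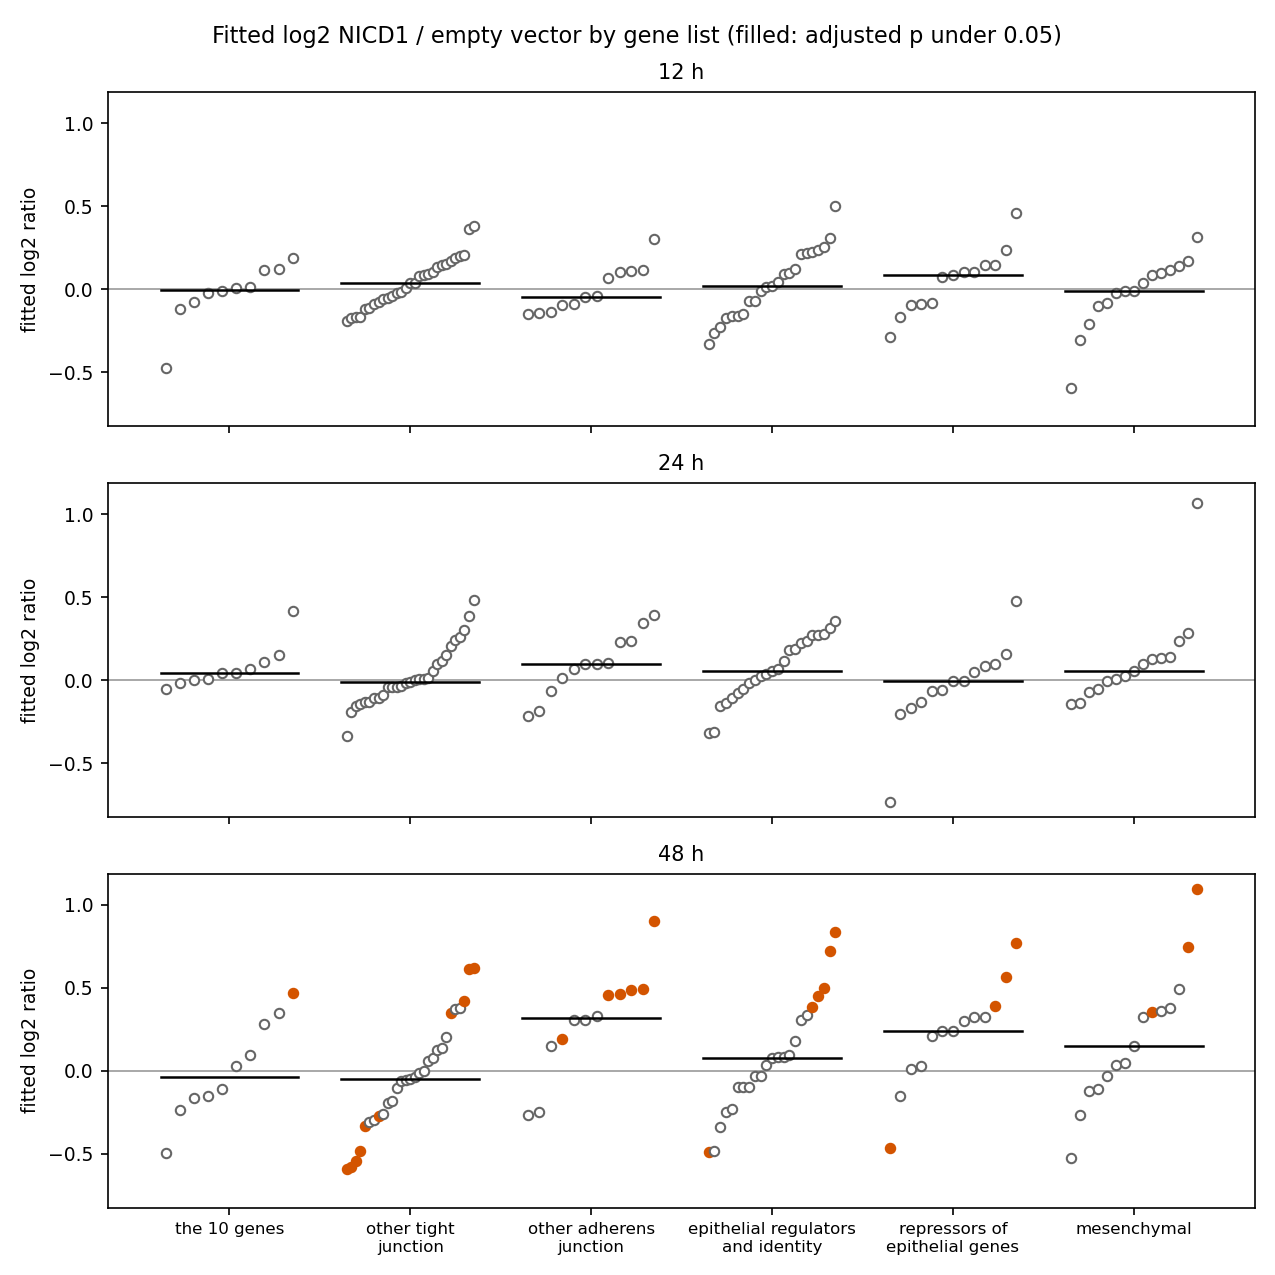
Fitted log2 ratio of NICD1 over empty vector at 12, 24 and 48 h (panels) for every measured gene of 6 lists (x axis), in order of size within a list, with filled points for genes past an adjusted p of 0.05 and a bar at the list's median. All points are open at 12 and 24 h, and at 48 h filled points lie above and below 0 among the tight junction genes and only above 0 among the adherens junction genes.

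The repressors were measured because several act on the 10 genes. Of 13, 3 rose and 1 fell at 48 h, close to the 27.8% of all genes that passed, and the median was 0.24. Snai1, which encodes the Snail repressor of Cdh1, was at 0.16 at the lowest, 0.67 at the median and 1.57 at the highest at 48 h, with all 7 arrays above 0. It rose by 0.77 ± 0.16 (adjusted p = 0.00196), a 1.70-fold change, and without replicates 5, 6 and 7 by 1.01 ± 0.20 (adjusted p = 0.0103). At 24 h its 7 arrays were also above 0, from 0.01 to 0.91, and the fitted ratio of 0.47 ± 0.16 did not pass (adjusted p = 0.259). Tcf3, an E-box binding factor, rose by 0.57 ± 0.10 (adjusted p = 0.000673), and without replicates 5, 6 and 7 it was at 0.37 (adjusted p = 0.0812). Twist2 rose by 0.39 ± 0.12 (adjusted p = 0.0209). Prrx1 fell by 0.46 ± 0.08 on the log2 scale (fitted ratio -0.46; adjusted p = 0.000504), with all 7 arrays below 0. The other main repressors did not pass at 48 h, with Snai2 at 0.24 ± 0.17, Zeb1 at 0.01 ± 0.10, Zeb2 at 0.24 ± 0.12 and Twist1 at 0.33 ± 0.32. On the same 48 h arrays Cdh1 was at 0.28 ± 0.11, and without replicates 5, 6 and 7 at 0.07 ± 0.13, as given above. Whether the ratios of Snai1 and Cdh1 were related was not tested.

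Of 15 mesenchymal genes, 3 passed at 48 h, each as higher, a smaller share than the 27.8% of all genes, and the median was 0.15. Col1a1, a collagen chain, rose by 1.10 ± 0.15 (adjusted p = 5.3e-05), a 2.14-fold change, with all 7 arrays above 0, from 0.33 to 1.85. Fn1, which encodes fibronectin, rose by 0.75 ± 0.16 (adjusted p = 0.00191), and Itga5, a chain of a fibronectin receptor, by 0.36 ± 0.12 (adjusted p = 0.0287). Vim, which encodes vimentin, was at 0.49 ± 0.21 (adjusted p = 0.0926), and Cdh2, which encodes N-cadherin, at 0.38 ± 0.19 (adjusted p = 0.15). These usual markers of a switch of filament or cadherin type did not pass in the main fit. Without replicates 5, 6 and 7, Vim was at -0.04 ± 0.21 and Cdh2 at 0.05 ± 0.24. Over 14 alternatives Vim at 48 h reached 0.78 at the highest and passed in 4, and Cdh2 reached 0.52 and passed in 1. When each of the 20 arrays was left out in turn, Vim passed in 2 fits and Cdh2 in 1.

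Over the 5 lists, 8 gene calls at the 3 times were made without replicates 5, 6 and 7 and 2 when each time was fitted alone, in place of 29. At 48 h those fits passed 3.69% and 1.37% of all genes. At 48 h without these arrays, Nectin1, Snai1, Fn1 and Col1a1 were higher and Krt18 and Prrx1 lower. The other 48 h calls in these lists ended without them. Among markers of alveolar type II cells, 3 of 8 measured genes rose at 48 h, Abca3, Nkx2-1 and Etv5, and none fell, where 27.8% of all genes passed in either direction. Without replicates 5, 6 and 7 none of these 8 passed. Among fibroblast markers 1 of 6 rose, Col1a1, which is also in the mesenchymal list, and with limma none of 5 endothelial and none of 3 leukocyte markers passed or had an unadjusted p under 0.05. Their part in the values of the junction genes was not tested.

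**Figure D4:**
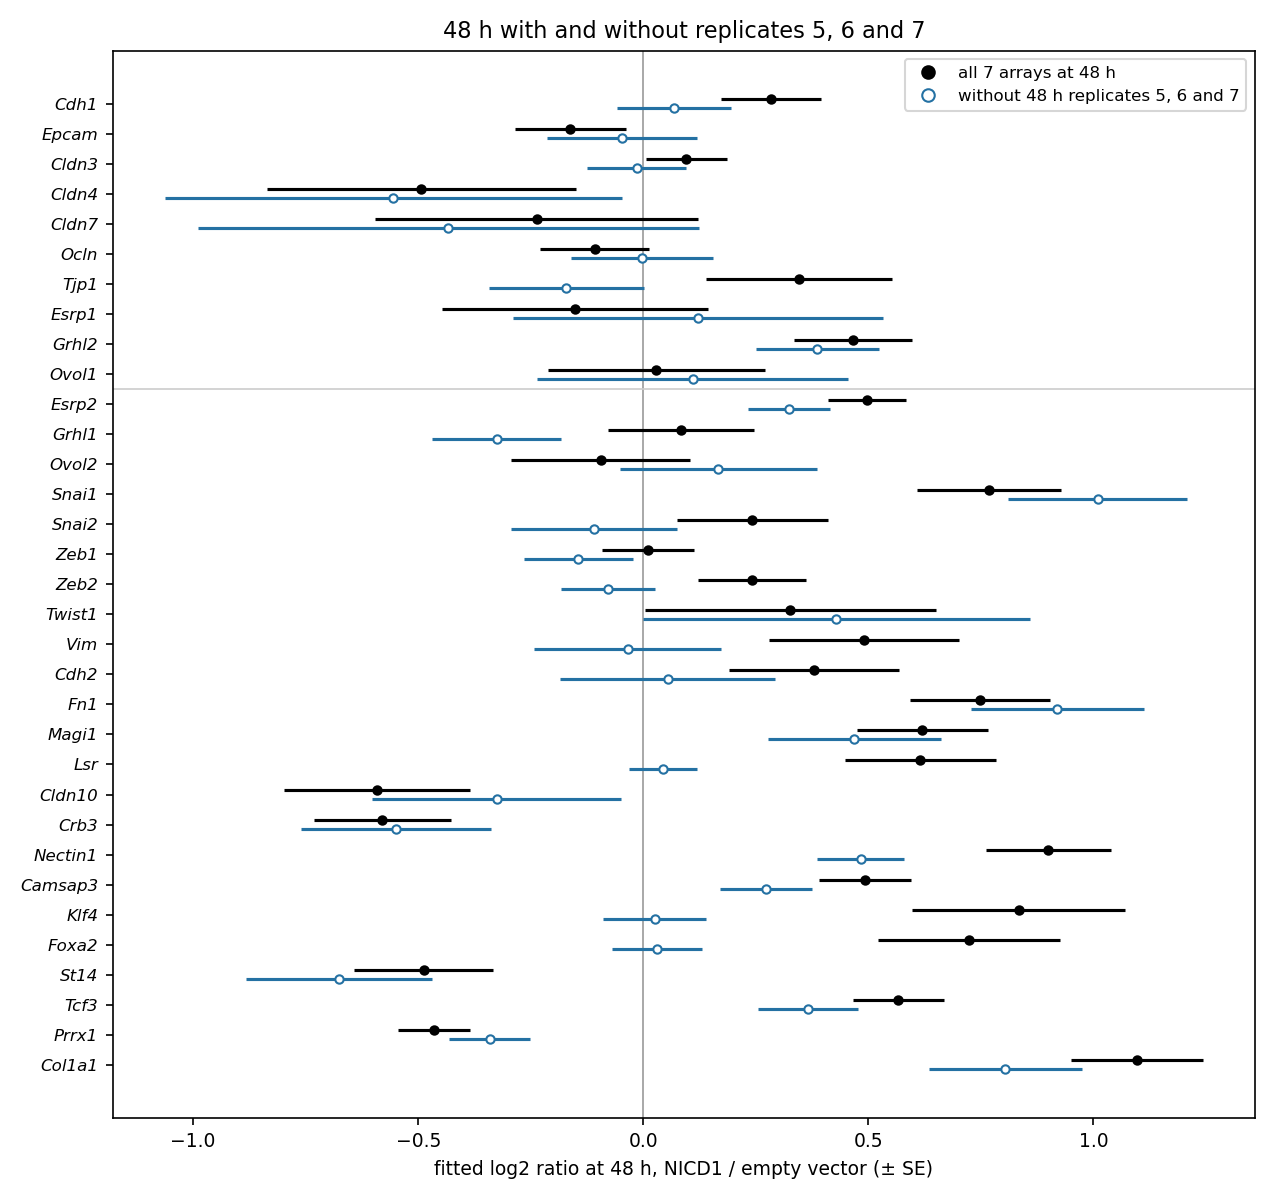
Fitted log2 ratio of NICD1 over empty vector at 48 h with its SE (x axis) for the 10 genes and, under the line, for other named genes, from all 7 arrays (black) and without replicates 5, 6 and 7 (open blue). Grhl2 and Snai1 keep their side of 0, Cdh1 moves from 0.28 to 0.07, and Tjp1 moves from 0.35 to -0.17.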

How the data were processed

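The deposited table held the authors' log2 ratios for 45220 rows on 20 arrays, with 14.2% of values missing, and limma is named in the submitters' processing notes without a version. That the scale is log2, and that arrays were centred (column medians from -0.0179 to 0.0195), was judged from the values. The sources used here give neither the background correction and normalisation nor the direction of the ratios. Rows were named through the platform annotation, in which 33653 had 1 symbol, 56 several and 11511 were not listed. A gene was the mean of its rows, each of which needed 4 or more arrays with a value per time. Linear models (3 times, 1 dye term) used limma 3.58.1 under R 4.3.3, after 12 h and 48 h replicate 3 were multiplied by -1. NICD1 carried Cy5 on 3 arrays at each time. Two-sided p-values were adjusted over all 17051 genes or all 37340 rows. The series design calls the replicates independent. No 2 arrays agreed so closely as to be duplicates, and same-numbered arrays did not deviate together (median r = 0.020 over 19 pairs). The code was tested on data with known answers. The number of arrays limits the precision, and single channel intensities were not used here.

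The 10 genes and all lists were chosen with earlier results of these data known. Named genes were the 10, their paralogs and main repressors, Vim, Cdh2 and Fn1, up to 2 highest and 2 lowest passing genes per list and time, and the 3 genes most alike to each passing member. Passing genes outside this rule (Jup, Ctnnb1, Vcl, Plekha7, Krt8, Foxa1, Twist2, Itga5 and marker genes) were named after their values were seen. So were Ctnna1, Ctnnd1, Nectin2, Nectin3, Nectin4, Afdn, Krt18 and Muc1. Promoters of passing members were to be shown, and those printed were chosen otherwise, as stated.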

Additional observations from a re-analysis of the deposited data

Results flagged for a closer look

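For the 10 genes and the other named genes, a test for 1 array far from the others (Dixon's criterion, under which chance picks about 1 group in 20) picked 0 of 99 groups of arrays. It cannot pick out 3 arrays that shift together, as 48 h replicates 5 to 7 did for Klf4 and Foxa2. None of the 10 genes passed the test of a difference between times, with the lowest adjusted p of 0.0805 for Grhl2 between 12 and 48 h. Among the other named genes, 7 differences between times passed limma's test with an adjusted p under 0.05. From 12 to 48 h the log2 ratio rose by 0.48 for Esrp2 (adjusted p = 0.0277), 0.83 for Fn1 (0.0308), 0.64 for Camsap3 (0.0159), 0.73 for Tcf3 (0.00698) and 0.93 for Col1a1 (0.0145), and for Prrx1 the difference was -0.38 (0.0469). From 24 to 48 h the ratio of Col1a1 rose by 0.86 (adjusted p = 0.0452).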

How the results depend on the processing

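Of the 10 genes, 1 passed at 48 h and none at 12 or 24 h. At 48 h 0 passed with all columns as deposited, with values needed on only 2 arrays of each time, with arrays centred and scaled, with array weights, with each time fitted alone and without replicates 5, 6 and 7. There 2 passed, Grhl2 and Cdh1, without both turned arrays and with values on all 20 arrays. With the replicate number as a block, 2 passed at 48 h, although the numbers did not pair the arrays (3 of 19 same-numbered pairs correlated above 0.1), and no count of the 10 genes at 12 or 24 h or between times changed. At 24 h 1 passed, Cdh1, with arrays centred and scaled, with array weights and without 48 h replicates 5, 6 and 7. Leaving out each array in turn gave 0 to 0 at 12 h, 0 to 1 at 24 h, 0 to 2 at 48 h, and 0 to 0 for each difference between times. Grhl2 at 48 h missed the threshold without 48 h replicate 6 (0.43, adjusted p = 0.051) or replicate 7 (0.34, 0.0537), and Cdh1 passed there without replicate 2 (0.37, 0.0206) or replicate 3 (0.35, 0.0229). Over its 14 alternatives, leave-outs apart, Grhl2 at 48 h stayed between 0.28 and 0.51, passed in 8, and had adjusted p-values from 0.00796 to 0.288. The 29 calls in the other lists became 14 with array weights, 2 with each time fitted alone and 8 without replicates 5, 6 and 7, and ranged from 17 to 31 when single arrays were left out. Calls over all genes fell as well at 48 h, from 27.8% to 3.69% without replicates 5, 6 and 7 and to 1.37% with 48 h fitted alone. With arrays centred and scaled, 1549 genes passed as higher and 1660 as lower, in place of 2392 and 2355. For the other settings the share of all genes is not given here, so the changed counts are a description. No value of a named gene that had passed changed sign. The cause of these shifts was not tested. Of the rows of the 10 genes, 3 passed at 48 h and 2 without a dye term. Protein sequences were not compared.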
